A study of Oncorhynchus tshawytscha with 15 samples.

Results

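The 300 longest contigs of a gill transcriptome assembled from juvenile Chinook salmon are described here, out of 183740 contigs in the deposited table. A contig is a stretch of sequence assembled from overlapping short reads, and it stands for a transcript or a piece of one. Contigs were ranked by the length that the authors used for RPKM (reads scaled by contig length and by the size of the library), with ties ordered by identifier, and no read count entered the choice. The 300 contigs ran from 6605 bp to 17271 bp with a median of 7785.5 bp, against a median of 582 bp over all contigs. They made up 0.163% of the contigs and 1.55% of the assembled bases.

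The fish were fall-run Chinook salmon from Merced River Hatchery, reared at 12° and 5 months past hatching. By design, the 4 heated groups spent 3 h in a water bath at 15°, 18°, 21°, or 25°. They were then to recover for 1 h at 12°. The control group was handled in the same way but stayed at 12°. Each library was made from the pooled gill RNA of 11 fish, with 3 pools at each temperature and 15 pools in all. According to the paper, part of the warmest group lost responsiveness or died in the bath. These fish were taken out and sampled soon after their gill covers stopped moving. Fish removed in this way did not have the full exposure and recovery. The results at 25° therefore do not come only from fish that had recovered. How many such fish each 25° pool held is not given, and their part in the 25° results was not tested. The table holds values for pools and not for single fish, so every p-value refers to the spread between pools. All 4 comparisons share the same 3 control pools. In whole gill tissue, fewer cells of a type and less RNA per cell cannot be told apart.

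The gill is the tissue through which a fish exchanges gas, ions, and heat with the water, and it holds several epithelial, blood, and vascular cell types. Warming of cells sets off the heat shock response, in which chaperone transcripts are made in large amounts while many other transcripts become less abundant. Long transcripts usually encode large proteins or carry long untranslated ends, and salmonids keep many duplicated genes from a whole-genome duplication in their ancestor. The table gives contigs as numbers with no gene names and no sequences, so neither the identity of the 300 transcripts nor the tissue's marker genes are given here. Contig names begin with KT3A or with denovo, and the same number can occur under both names. Of the 300 contigs, 123 had the KT3A name and 177 the denovo name, and the 7 whose number occurs under both carry the kind of name here as well.

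The table held a further length column, which equalled the length used for RPKM in all but 145 contigs. All 145 were among the 300 longest, and they were every contig longer than 7856 bp. The difference was exactly 4000 bp in 129 contigs, up to a length of 11091 bp, and exactly 10000 bp in 16 contigs, from 11302 bp upward. The shortest value this gave was 1302 bp for contig_465079, whose length for RPKM was 11302 bp. The 2 columns split the list by name as well, since 111 of the 123 KT3A contigs had unequal lengths but 34 of the 177 denovo contigs did. Ranked by the other column, 178 of the 300 contigs would remain among the 300 longest. Which column gives the true length was not tested, since no sequences were used here. Read counts do not depend on either column, but RPKM does.

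**Figure D1:**
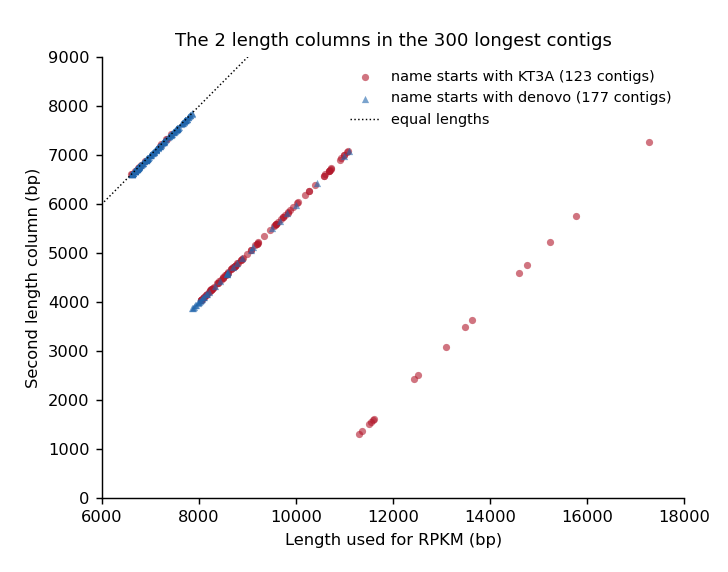
Each point is 1 of the 300 longest contigs, with the length used for RPKM in bp on the horizontal axis, the second length column in bp on the vertical axis, and the dotted line marking equal lengths. Red circles are the 123 KT3A contigs and blue triangles the 177 denovo contigs, and the contigs off the line fall on 2 parallel lines 4000 bp and 10000 bp below it.

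Depth was ample for every one of the 300 contigs. Libraries held 58654252 to 90869450 reads in total. Each of the 300 had reads in every library, from 36 reads at the lowest to 81989 at the highest, and all 300 passed the filter for testing. The median contig of the list had 30900 reads over the 15 libraries, against 1052 for the median of the 155951 contigs tested. A limit of 3 reads, which covers counting error only, corresponded to 0.0330 to 0.0511 CPM (counts scaled to a common library size) by library totals. The CPM given here were divided further by a scaling factor of 0.786 to 1.08. With that factor the limit still lay below every value given here. Reads aligned to these contigs were nearly all unique, with a pooled share of 99.86% against 97.76% over all contigs tested. The unique share was below 99% in 11 contigs and lowest in contig_61325 (93.8%), contig_59106 (97.2%), and contig_475576 (97.7%). Reads on contigs of this kind may be divided between near-identical copies, so their values are uncertain.

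The level of the 300 contigs at 12° spanned 2 orders of magnitude. Mean RPKM ran from 0.363 to 46.1 with a median of 3.66, and the median contig tested had an RPKM of 1.49. The highest RPKM at 12° belonged to contig_468544 (46.1 ± 5.91, SD, n = 3), followed by contig_54231 (37.6 ± 12.6) and denovo_contig_5715 (24.0 ± 7.92). Neighbours in this order overlap within their SDs, so the order is not resolved by these pools. The ranking depends on the length column: with the other column the highest would be contig_465079 (105 ± 102), contig_1374900 (76.1 ± 48.2, named after its values were seen), and contig_54231 (69.5 ± 23.2), where contig_468544 keeps its 46.1. The steadiest of these, contig_468544, had 285, 346, and 332 CPM in the 12° pools and 240, 230, and 233 in the 25° pools. These groups did not overlap, but the fall of 0.46 on the log2 scale did not pass the threshold (edgeR's quasi-likelihood test, Benjamini-Hochberg adjusted p = 0.0185). In contig_54231 the 25° pools at 262, 167, and 175 CPM overlapped the 12° pools at 206, 323, and 399.

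Across the 5 temperatures, the share of all reads that lay on the 300 contigs varied about as much between pools as between temperatures. At 12° the share was 0.998%, 1.25%, and 1.41% in pools 1 to 3, and at 15° it was 1.34%, 1.01%, and 1.29%. At 18° the shares were 1.02%, 1.26%, and 1.19%, and at 21° they were 1.02%, 0.962%, and 1.32%. The 25° pools had 1.13%, 0.841%, and 0.955%. Group means were 1.22 ± 0.206%, 1.21 ± 0.179%, 1.15 ± 0.125%, 1.1 ± 0.195%, and 0.974 ± 0.144% (SD, n = 3) from 12° to 25°. The mean was lowest at 25°, but the highest 25° pool lay above the lowest pool of each other temperature, so the groups overlapped.

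**Figure D2:**
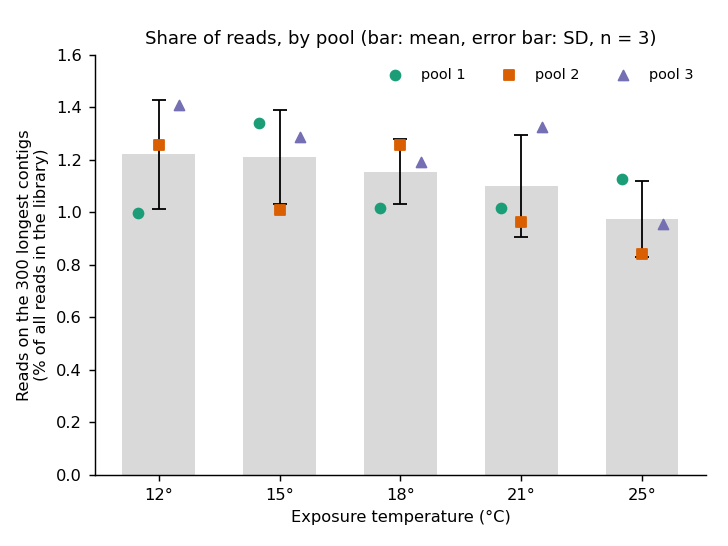
Bars show the mean percent of all reads in a library that lay on the 300 longest contigs at each exposure temperature in °C, error bars the SD of the 3 pools, and points the single pools by replicate number. The means fall from 1.22% at 12° to 0.974% at 25°, while pools of the same temperature differ by 1.24 to 1.41 times.

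The pool that was low was not the same replicate number at each temperature. It was pool 1 at 12° and 18° and pool 2 at 15°, 21°, and 25°. The share of reads on the 300 contigs moved with a second property of each library, the mean length of all other contigs weighted by their reads. That mean was 1496, 1550, and 1559 bp in the 12° pools, 1554, 1514, and 1552 bp at 15°, 1520, 1551, and 1525 bp at 18°, 1519, 1513, and 1560 bp at 21°, with 1463, 1423, and 1462 bp at 25°. In each of the 5 temperatures the pools fell in the same order by both measures, and in 0 of the 5 did they fall in the order of total reads. All 3 pools at 25° had a lower weighted length than any other pool. According to the paper, all RNA had a high integrity number before pooling. The 3 replicates of each temperature were run on consecutive days, and libraries were sequenced 3 to a lane. The labels give neither day nor lane. The part that day, lane, RNA integrity, or library preparation had in these differences was not tested.

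The same tilt was seen contig by contig. After scaling by TMM (trimmed mean of M values), pool 1 was the lowest of the 3 control pools in 221 of the 300 contigs (73.7%, against 38.2% of all contigs tested), and pool 3 was the highest in 178 (59.3%, against 35.6%). At 15°, pool 2 was lowest in 217 contigs (72.3%, against 42.1%) and pool 1 highest in 181 (60.3%, against 33.6%). At 18°, pool 1 was lowest in 191 contigs (63.7%, against 34.0%) and pool 2 highest in 208 (69.3%, against 36.8%). In the 2 warmest groups the excess of the lowest pool over its background was smaller. At 21°, pool 2 was lowest in 163 contigs (54.3%, against 32.5%) and pool 3 highest in 205 (68.3%, against 37.1%). At 25°, pool 2 was lowest in 156 contigs (52%, against 32.1%) and pool 1 highest in 185 (61.7%, against 36.1%). The tilt was also present in the tested contigs of 5000 to 6604 bp, where pool 1 was lowest at 12° in 59.1% and pool 2 lowest at 15° in 55.3%, so it was not particular to the 300.

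The typical spread between pools was smaller in the 300 contigs than in the table as a whole, which holds many contigs with few reads, but larger than in the next longest contigs. The median coefficient of variation (CV, the SD divided by the mean of 3 pools) was 0.155 at 12°, 0.108 at 15°, 0.0957 at 18°, 0.115 at 21°, and 0.131 at 25°. Over all contigs tested the medians were 0.213, 0.206, 0.156, 0.217, and 0.241 in the same order, and in the 783 tested contigs of 5000 to 6604 bp they were 0.112, 0.0925, 0.070, 0.0958, and 0.126. A CV above 0.5 was found in 38, 24, 20, 38, and 33 of the 300 contigs, or 12.7%, 8%, 6.67%, 12.7%, and 11%. The shares over all contigs tested were higher, at 15.2%, 16.9%, 10.2%, 19.6%, and 20.5%, and those of the contigs of 5000 to 6604 bp were lower, at 7.41%, 5.36%, 4.98%, 7.66%, and 6.77%. The highest pool exceeded the lowest by more than 2-fold in 62, 42, 34, 55, and 48 contigs, or 20.7%, 14%, 11.3%, 18.3%, and 16%, against 29.0%, 29.1%, 20.0%, 31.3%, and 33.4% of all contigs tested.

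A group of 30 contigs, 10% of the list, had a pool ratio above 2 at every one of the 5 temperatures, against 6.20% of all contigs tested. They were picked by their pool ratios, so those ratios are a description of them. The same pools were high in nearly all 30. Pool 3 was the highest at 12° in 28 of the 30, pool 2 at 18° in 29, pool 3 at 21° in 30, and pool 1 at 25° in 29, and at 15° pool 1 was highest in 24 and pool 3 in 6. The lowest pool was pool 1 at 12° in 29 and at 18° in 28, and it was pool 2 at 15° in 30, at 21° in 27, and at 25° in 27. Of the 30, 16 had the KT3A name and 18 had unequal lengths. At the other end, 233 of the 300 contigs had a pool ratio below 2 at all 5 temperatures.

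The contig with the largest CV at 12° was contig_476085 (9725 bp, CV 1.14). Its CPM values were 19.5, 22.4, and 141 at 12°, 44.3, 10.1, and 57.4 at 15°, 17.3, 54.2, and 23.3 at 18°, 19.0, 11.5, and 77.8 at 21°, with 60.8, 25.8, and 34.5 at 25°. Control pool 3 stood well above the other control pools, and each heated group overlapped the controls. The log2 fold change at 25° was -0.60 with a standard error (SE) of 0.66 (edgeR's quasi-likelihood test, Benjamini-Hochberg adjusted p = 0.523), and without control pool 3 it turned to 0.99. The deviations of contig_476085 from its temperature means, over the 15 pools, followed those of contig_51518 most closely, with r = 0.997. Of the other 299 contigs, 20 had an r above 0.9 and 2 an r below -0.9, with a median r of 0.67, and 0.778% of all contigs tested had an r above 0.9. These points share libraries and their scaling, and the correlations are given as a description.

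A wider range still was found in contigs chosen after their values were seen. In contig_465079, the contig with the shortest value in the other length column, CPM were 12.4, 112, and 260 at 12°, 198, 10.4, and 161 at 15°, 11.9, 91.6, and 17.5 at 18°, 10.7, 7.88, and 147 at 21°, with 143, 8.81, and 12.1 at 25°. Its pools differed by 7.72 to 21.0 times within a temperature, and at 25° its log2 fold change of -1.23 had an SE of 1.09 (edgeR's quasi-likelihood test, Benjamini-Hochberg adjusted p = 0.423). The same pools were high in contig_466047 (8738 bp), which had 1.06, 7.70, and 10.5 CPM at 12° and 12.2, 0.828, and 1.77 at 25°.

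The widest pool ratio of the 300 contigs was that of contig_82406 (8093 bp) at 18°. Its values were 323, 75.6, and 151 CPM at 12°, 284, 4.05, and 186 at 15°, 2.30, 9.97, and 1031 at 18°, 115, 14.7, and 301.2 at 21°, with 223, 53.9, and 319 at 25°. At 18° the highest pool exceeded the lowest by 449-fold, from 193 reads in pool 1 to 81989 in pool 3, which was the highest count of any of the 300 contigs in any library. Its unique share was 99.9%. At 15° and 21° its highest and lowest pools were those of most of the 30 contigs above, but its highest pool was pool 1 at 12° and pool 3 at 18° and 25°. The lowest adjusted p of its 4 comparisons was 0.878 in edgeR's quasi-likelihood test.

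The steadiest control values belonged to contig_59249 (7216 bp, CV 0.0129), with 24.0, 24.0, and 23.5 CPM at 12°. It had 26.4, 26.3, and 25.4 at 15°, 28.0, 24.3, and 28.9 at 18°, 27.1, 25.4, and 23.4 at 21°, with 36.9, 39.1, and 40.0 at 25°. The 25° pools lay above every other pool. The rise of 0.70 on the log2 scale had an SE of 0.11 (edgeR's quasi-likelihood test, Benjamini-Hochberg adjusted p = 0.00138) and stayed under the 2-fold limit.

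**Figure D3:**
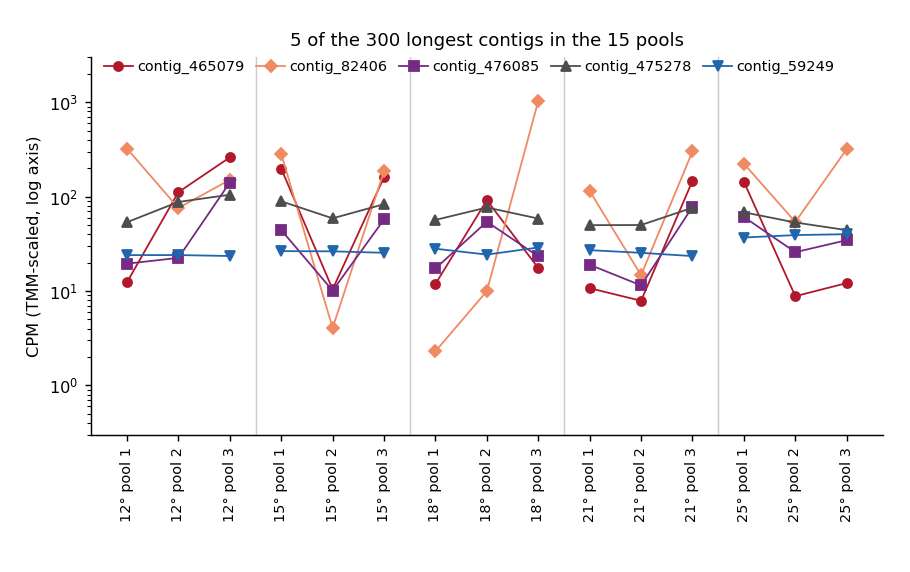
CPM after TMM scaling, on a log axis, are plotted for 5 of the 300 longest contigs in the 15 pools, with lines joining the pools of a temperature. The pools of contig_465079 and contig_476085 move widely in the same direction, contig_82406 runs from 2.30 to 1031 at 18°, contig_475278 lies between 44.1 and 105, and contig_59249 is nearly level apart from 25°.

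The main direction of variation among the 300 contigs was a split between pools and not between temperatures. In a decomposition of log2 CPM centred on each contig, the first component held 54.4% of the variance and set pools 2 and 3 at 12°, pools 1 and 3 at 15°, pool 2 at 18°, pool 3 at 21°, and pool 1 at 25° apart from the remaining pools. The second component held 28.8% and set the 3 pools at 25° apart from the other 12. Over all contigs tested the order was reversed: the component that set 25° apart held 49.4%, and the split between the same pools came next with 16.3%. Per contig, the median share of variance that lay between temperatures was 47.8% in the 300 contigs and 51.2% over all contigs tested. That share exceeded 50% in 144 of the 300 contigs (48%, against 51.4% of all contigs tested). The median share was 42.5% in the 123 KT3A contigs, 56.2% in the 177 denovo contigs, and 67.3% in the contigs of 5000 to 6604 bp. Part of each such share needs no effect of temperature, since means of 3 pools differ through pool spread alone.

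The study asked which transcripts change at each temperature relative to 12°. For each comparison, edgeR's quasi-likelihood test was run on all 155951 contigs tested, and contigs were called where the Benjamini-Hochberg adjusted p was below 0.01 and the fold exceeded 2. At 15°, 0 of the 300 contigs passed, as did 0% of all contigs tested in each direction, and the lowest adjusted p was 1. At an unadjusted p below 0.05 there were 4 contigs (background 2.45%), and DESeq2's Wald test also called 0 (background 0% up and 0.00128% down). All 3 pools lay above all 3 controls in 13 contigs (background 4.18%) and below them in 6 (background 4.14%). The median log2 fold change of the list was 0.0033, against -0.0068 over all contigs tested.

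At 18°, 0 of the 300 contigs passed, against 0.0269% of all contigs tested that were upregulated and 0% downregulated. There were 29 contigs at an unadjusted p below 0.05 (background 10.7%), and DESeq2's Wald test called 0 (background 0.196% up and 0.0814% down). All 3 pools at 18° lay above the controls in 31 contigs (background 8.72%) and below them in 20 (background 8.55%). The contig nearest to the threshold was contig_20032, with a log2 fold change of 0.91 and an adjusted p of 0.0182 in edgeR's quasi-likelihood test. The list as a whole sat at a median of -0.04, against -0.03 for all contigs tested.

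At 21°, 3 of the 300 contigs were upregulated (1.00%, against 0.53% of all contigs tested) and 0 were downregulated (background 0.0558%). In the tested contigs of 5000 to 6604 bp, 0.89% were upregulated and 0% downregulated, so the share of rises was not particular to the 300. DESeq2's Wald test called 4 up (1.33%, against 1.12% of all contigs tested) and 1 down (0.33%, against 0.40%), and at an unadjusted p below 0.05 edgeR gave 29 higher and 27 lower contigs, together 18.7% of the list against a background of 16%. Pools did not overlap in 37 contigs that lay above the controls (background 11.5%) and in 30 that lay below (background 10.8%). The medians were -0.08 for the list and -0.02 for all contigs tested.

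The 3 contigs that rose at 21° were contig_25447, contig_56235, and contig_20032, all denovo contigs with equal length columns. In contig_25447 (6827 bp), the least abundant of the 300 contigs at 12° by RPKM, CPM were 2.45, 2.40, and 2.24 at 12°, 2.17, 2.35, and 1.96 at 15°, 3.02, 2.73, and 2.72 at 18°, 5.53, 5.63, and 6.12 at 21°, with 8.64, 7.41, and 9.46 at 25°. The pools at 18°, 21°, and 25° each lay above all controls. The log2 fold change at 21° was 1.32 with an SE of 0.14 (edgeR's quasi-likelihood test, Benjamini-Hochberg adjusted p = 0.00255).

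In contig_56235 (6737 bp) every heated group lay above the controls. CPM values were 21.3, 22.4, and 21.4 at 12°, 24.6, 24.4, and 23.7 at 15°, 29.3, 31.5, and 31.5 at 18°, 49.2, 48.9, and 43.5 at 21°, with 73.4, 66.2, and 77.0 at 25°. Neighbouring temperatures did not overlap at any step. The log2 fold change was 1.15 with an SE of 0.10 at 21° (edgeR's quasi-likelihood test, Benjamini-Hochberg adjusted p = 0.000601) and 1.73 with an SE of 0.12 at 25° (adjusted p = 5.96e-06).

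The same stepwise course was seen in contig_20032 (6907 bp), again with every heated group above the controls. It had 53.2, 46.5, and 43.3 CPM at 12°, 71.8, 68.2, and 67.9 at 15°, 88.9, 89.6, and 87.1 at 18°, 99.1, 102, and 90.1 at 21°, with 254, 263, and 211 at 25°. The log2 fold changes were 0.54, 0.91, 1.05, and 2.35 from 15° to 25°. The rise at 21° had an SE of 0.11 and an adjusted p of 0.00218, and the rise at 25° an SE of 0.14 and an adjusted p of 2.09e-06 (edgeR's quasi-likelihood test). The calls at 21° did not hold in every fit with a pool left out, while their log2 fold changes moved little. These ran from 1.26 to 1.34 in contig_25447, from 1.11 to 1.20 in contig_56235, and from 0.99 to 1.13 in contig_20032. Without 12° pool 2 or 3, or 21° pool 1 or 2, 0.167% to 0.241% of all contigs tested were upregulated, against 0.53% with all pools. Leaving out 12° pool 2, 12° pool 3, 21° pool 1, or 21° pool 2 took the adjusted p of contig_25447 to between 0.0152 and 0.0258 and that of contig_20032 to between 0.0113 and 0.0269, and leaving out 21° pool 1 or 2 took that of contig_56235 to between 0.0107 and 0.0124.

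At 25°, 18 of the 300 contigs were upregulated (6%, against 8.61% of all contigs tested) and 13 were downregulated (4.33%, against 6.05%). Changes past 2-fold were less common in the list, since 11.7% of the list exceeded 2-fold in either direction against 31.6% of all contigs tested, while the median SE was 0.17 against 0.33. In the tested contigs of 5000 to 6604 bp, with a median SE of 0.16, 8.30% were upregulated and 6.39% downregulated. The part of read depth in these differences from the table was not tested. With no fold limit the shares lay above those of the table, with 40 contigs higher (13.3%, background 10.3%) and 34 lower (11.3%, background 8.02%). At an unadjusted p below 0.05 there were 137 contigs, or 45.7%, against a background of 42.8%. Pools did not overlap in 70 contigs above the controls (23.3%, background 22.1%) and in 67 below (22.3%, background 25.1%). The median log2 fold change was -0.05 in the list and -0.09 over all contigs tested.

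The split between rises and falls depended on the scaling. With library totals in place of TMM, 12 contigs were upregulated (4%, against 5.90% of all contigs tested) and 38 downregulated (12.7%, against 12.4%) at 25°, so that rises fell from 58.1% to 24% of the calls in the list and from 58.7% to 32.3% over all contigs. The median of all contigs moved to -0.44 and that of the list to -0.41 under library totals. All 12 of those upregulated and 13 of those downregulated were also called under TMM. The weighted length of other contigs, 1423 to 1463 bp at 25° and 1496 to 1559 bp at 12°, cannot be told apart from temperature here. Entered as a covariate after the data were seen, it gave 31 contigs up (10.3%, against 3.37% of all contigs tested) and 4 down (1.33%, against 1.18%). The median under this covariate was 0.55 in the list and 0.027 over all contigs, so the share of rises lay below that of the table without the covariate and above it with the covariate.

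**Figure D4:**
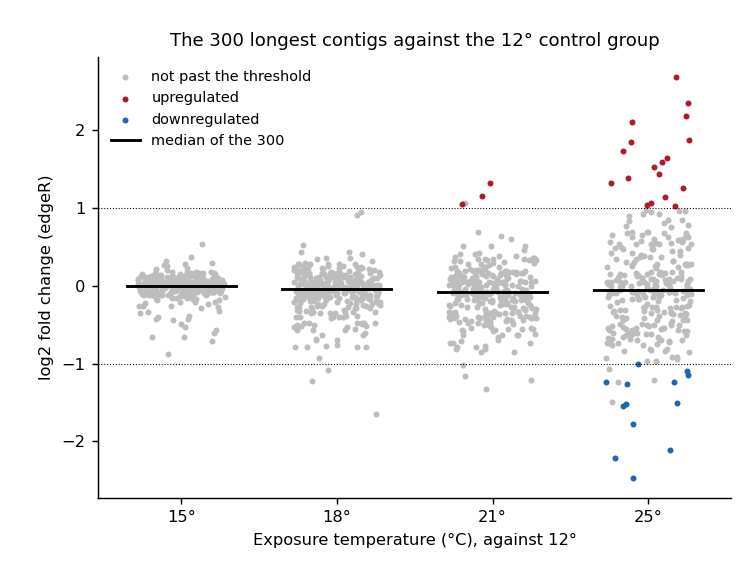
Each point is the edgeR log2 fold change of 1 of the 300 longest contigs against the 12° control group, at each of 4 exposure temperatures in °C, with the median as a bar and dotted lines at the 2-fold limits. Contigs past the threshold are red (3 at 21° and 18 at 25°) or blue (13 at 25°), and the spread of the points widens with temperature around medians between -0.08 and 0.0033.

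The 18 contigs that rose at 25° had log2 fold changes of 1.03 to 2.68 with a median of 1.55. In all 18 the 25° pools lay above the control pools and above the 21° pools, and the mean rose from 18° to 21° and from 21° to 25°. In 10 of the 18 it rose at each step from 12°. These 18 were picked by the test of 25° against 12°, which itself favours pools that lie apart from the controls. No share over all contigs called at 25° is given beside these counts. By name, 13 of the 18 were denovo contigs and 5 KT3A contigs, and 11 had equal length columns. Their median log2 fold changes at 15°, 18°, and 21° were 0.06, 0.25, and 0.44.

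The largest rise was that of contig_506949 (8079 bp), and it appeared at 25° without a step before it. CPM values were 12.0, 9.53, and 10 at 12°, 8.33, 9.77, and 11.1 at 15°, 10.7, 9.80, and 12.8 at 18°, 11.5, 12.6, and 11.3 at 21°, with 69.1, 61.0, and 72.4 at 25°. The 25° pools were 6.41-fold higher than the controls by the fitted change, a log2 fold change of 2.68 with an SE of 0.14 (edgeR's quasi-likelihood test, Benjamini-Hochberg adjusted p = 1.08e-06), while the other heated groups overlapped the controls. Most of the rise of contig_25778 (7258 bp) also appeared at 25°, with 12.8, 14.0, and 13.8 at 12°, 15.1, 15.3, and 14.9 at 21°, and 62.8, 74.4, and 47.9 CPM at 25°. Its 21° pools lay just above the controls, and its log2 fold change at 25° was 2.19 with an SE of 0.17.

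A large rise at 25° with overlap between the 21° and control pools was seen in contig_53964 (9066 bp), which had 21.9, 25.7, and 25.3 CPM at 12°, 25.8, 25.0, and 30.5 at 21°, and 128, 97.6, and 87.6 at 25°. Its rise was 2.10 on the log2 scale with an SE of 0.17. The fifth, contig_468947 (8707 bp), went from 10.4, 10.4, and 14.4 at 12° to 52.0, 44.5, and 33.1 CPM at 25°, a log2 fold change of 1.87 with an SE of 0.20. Adjusted p-values of these 3 contigs at 25° were between 1.1e-05 and 9.28e-05 in edgeR's quasi-likelihood test. Another riser, contig_81535 (9514 bp, named after its values were seen), exceeded 2-fold at 21° without passing the threshold there (log2 fold change 1.07, edgeR's adjusted p = 0.0151).

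The 13 contigs that fell at 25° had log2 fold changes of -2.46 to -1.0 with a median of -1.50. In all 13 the 25° pools lay below the control pools, and in 12 they also lay below the 21° pools. The mean fell at each step from 12° in 5 of the 13. As with the rises, the test favours pools apart from the controls, and no share over all called contigs is given beside these counts. Of the 13, 10 were denovo contigs and 10 had equal length columns. The median log2 fold changes of the 13 at 15°, 18°, and 21° were -0.05, -0.09, and -0.22.

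The largest fall was in contig_31012 (7184 bp), and it built up over the temperatures. CPM values were 48.6, 57.9, and 61.1 at 12°, 52.0, 48.8, and 53.3 at 15°, 38.6, 47.0, and 41.0 at 18°, 30.4, 33.2, and 35.2 at 21°, with 9.09, 11.0, and 10.3 at 25°. The pools at 18°, 21°, and 25° all lay below the controls. The log2 fold change was -0.73 at 21° (adjusted p = 0.0173, not past the threshold) and -2.46 with an SE of 0.15 at 25° (adjusted p = 2.04e-06, both from edgeR's quasi-likelihood test).

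A wider pool spread was seen in contig_464649 (8595 bp), with 11.8, 20.8, and 18.7 CPM at 12°, 6.46, 4.35, and 10.7 at 21°, and 5.53, 3.15, and 2.40 at 25°. This was the contig among the 13 whose 25° and 21° pools overlapped, and its log2 fold change at 25° was -2.22 with an SE of 0.32 (edgeR's adjusted p = 0.000576). By contrast contig_56758 (7064 bp) kept its control level through 21° and was low at 25° alone. It had 23.9, 31.9, and 31.0 CPM at 12°, 31.0, 28.6, and 34.9 at 21°, and 5.73, 6.76, and 7.63 at 25°, a fall of 2.11 on the log2 scale with an SE of 0.17.

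The remaining named falls were contig_45594 (7116 bp) and contig_30100 (7275 bp). In contig_45594 CPM went from 10.7, 15.4, and 13.7 at 12° to 4.05, 3.33, and 4.26 at 25°, a log2 fold change of -1.78 with an SE of 0.19. contig_30100 had 134, 137, and 130 at 12°, 111, 115, and 111 at 21°, and 36.8, 50.3, and 50.6 CPM at 25°, a log2 fold change of -1.55 with an SE of 0.15. Its 21° pools were tightly grouped and already below the controls, but the change there of -0.22 had an adjusted p of 0.274 in edgeR's quasi-likelihood test.

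**Figure D5:**
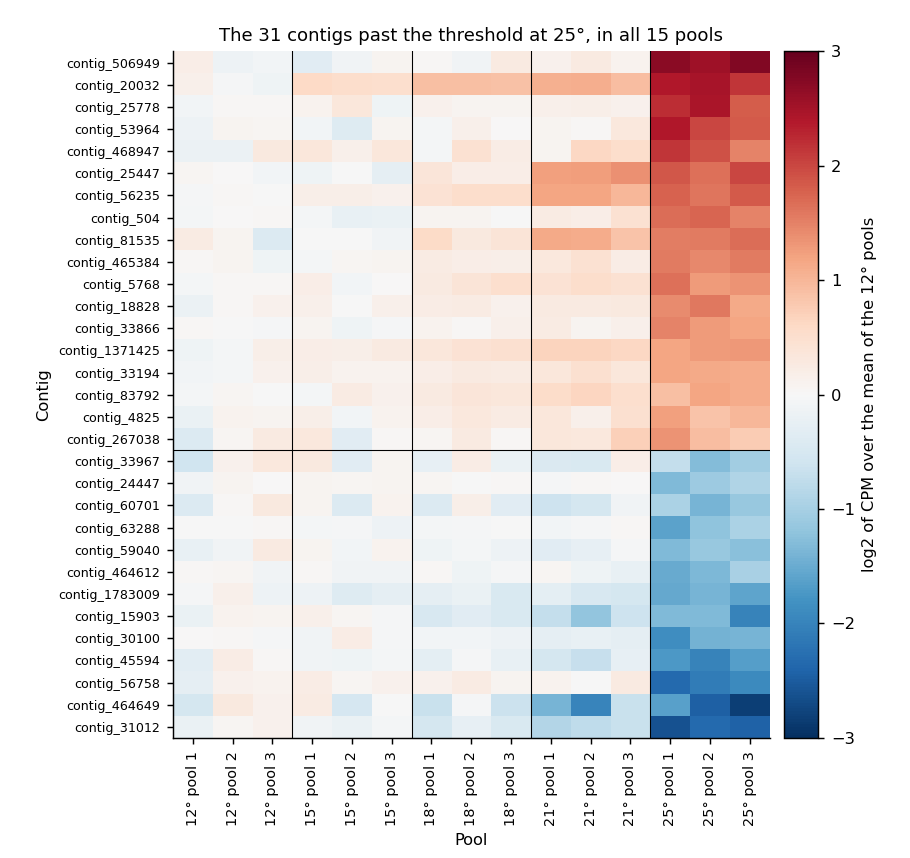
Rows are the 31 contigs past the threshold at 25°, ordered by fold change with the 18 risers above the line and the 13 fallers below, columns are the 15 pools, and colour is the log2 of CPM over the mean of the 12° pools. The 25° columns carry the strongest colours in both sets, and contig_20032 and contig_56235 show colour from lower temperatures upward.

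The contigs called at 25° had a smaller pool spread than the list, a property that the test itself favours. The median CV at 12° was 0.086 in the 18 that rose and 0.116 in the 13 that fell, against 0.155 for the list. A further 4 contigs fell by more than 2-fold without passing the threshold. They were contig_466671 (log2 fold change -1.50, edgeR's adjusted p = 0.0118), contig_465079, contig_464780 (-1.21, adjusted p = 0.17), and contig_3245 (-1.07, adjusted p = 0.017). Their median CV at 25° was 0.537.

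The 5 longest contigs were all KT3A contigs whose other length was 10000 bp shorter, and 0 of them passed the threshold. The longest of all, contig_515524 (17271 bp), had 41.4, 56.0, and 56.2 CPM at 12° and 60.9, 40.4, and 48.5 at 25°, with overlapping groups and a log2 fold change of -0.04. For contig_475278 (15760 bp) the values were 53.5, 87.8, and 105 at 12° and 68.2, 53.2, and 44.1 at 25°, which also overlapped, and its log2 fold change was -0.58. The 25° value of contig_464601 (15231 bp) was 35.5 ± 14.1 CPM against 22.6 ± 13.4 at 12° (SD, n = 3), and that of contig_465047 (14592 bp) was 61.4 ± 27.5 against 56.9 ± 16.1.

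The exception in course was contig_464445 (14753 bp), with 33.7, 41.4, and 50.2 CPM at 12°, 26.5, 26.4, and 33.7 at 21°, and 25.1, 22.2, and 19.0 at 25°. The 25° pools lay below every control pool, and the log2 fold change of -0.92 with an SE of 0.17 had an adjusted p of 0.00294 (edgeR's quasi-likelihood test) but stayed under the 2-fold limit. Without 25° pool 1 the change was -1.02 and the contig passed.

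Among the contigs with the lowest unique shares, contig_61325 had 27.2 ± 4.80 CPM at 12° and 33.6 ± 1.70 at 25° (SD, n = 3), contig_59106 had 18.4 ± 10.3 and 19.4 ± 10.2, and contig_475576 had 9.24 ± 4.92 and 12.9 ± 1.05. In each, the 25° pools overlapped the controls. At the edge of the list, the last contig inside it was contig_50369 (6605 bp), with 5.68 ± 0.515 CPM at 12° and 6.93 ± 1.02 at 25°, and the next in length was denovo_contig_4640 (6604 bp), with 1.98 ± 0.537 and 3.62 ± 1.16.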

How the data were processed

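Gill RNA of 15 pools was sequenced. Per the paper's methods, the authors trimmed reads with Cutadapt 1.1, assembled them into contigs with CLC Genome Workbench 4.9 (a beta release), and aligned the reads of each library to the contigs with release 5.0. The deposited counts are whole reads per contig, total and unique. RPKM as deposited was computed by the authors, and it follows from total reads and the length column that ranks the list. The deposited lengths are in bases. Of 98 columns, 50 were not used, among them the authors' fold changes, differences, test statistics, and p-values.

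A contig was tested if 3 or more of the 15 libraries had 10 or more reads on it. Each heated group was compared with 12° in a fit of 6 libraries with edgeR 4.0.16 in R 4.3.3 (TMM, glmQLFit, glmQLFTest, Benjamini-Hochberg over all contigs tested), and DESeq2 1.42.0 was an alternative. The method was tested on simulated data, whose counts had 1 fixed dispersion for all contigs and no split of pools shared between contigs. The SE of a log2 fold change was taken as its absolute value divided by the square root of the F statistic of edgeR's test. CPM values were scaled by TMM over all 15 libraries. Python 3.11.15, numpy 2.4.6, and pandas 2.3.3 did the rest. Pools were grouped by the temperature in their labels.

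Contigs named are the 5 longest, the last inside the list and the first outside it, the 3 with the highest RPKM at 12°, up to 5 rises and 5 falls at 25° and 3 of each at lower temperatures (largest changes past the threshold with pools that did not overlap), the largest and smallest CV at 12°, and the 3 lowest unique shares. The list and the rules were chosen with earlier results of these data known. Alternatives were other scalings, DESeq2's Wald test, other filters and thresholds, unique reads, all 15 libraries in 1 fit, the replicate number as a block, the other length column, 150 or 600 longest contigs, and each library left out in turn.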

Additional observations from a re-analysis of the deposited data

How the results depend on the processing

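The 13 results for contigs named at 21° or 25° that passed the threshold were refitted under 12 settings each. Of the 156 values, 146 stayed past the threshold in the same direction and 0 reversed. The other 10 fell short of the threshold, and they were calls at 21° with a pool left out. The 13 results were named as the largest changes with pools apart in these same libraries, so a reversal was unlikely from the outset. These 12 settings did not include the covariate of weighted contig length. Under that covariate 4 contigs of the list were downregulated at 25°, fewer than the 5 named falls. At least 1 named fall at 25° was therefore not called with the covariate. Counts at 25° moved with the covariate of weighted contig length, chosen after seeing the data (31 up, 4 down, median 0.55). They also moved with library totals (38 down, median -0.41) and with no fold limit (40 up, 34 down). The list by the other length column had 20 down, against 6.05% of all contigs tested. Under the covariate 3 contigs fell at 21° (1%, against 0.489% of all contigs tested) and 1 at 18° (0.333%, against 0.0641%). DESeq2's Wald test gave 1 fall at 21° (0.333%, against 0.400%). An adjusted p below 0.10 also gave 1 fall at 21°, for which no share over all contigs is given here. With the 150 longest contigs 0 rose at 21°, and 7 rose and 3 fell at 25°. With the 600 longest, 5 rose at 21°, and 40 rose and 25 fell at 25°. For both lists the shares over all contigs tested were 0.53% up at 21°, and 8.61% up and 6.05% down at 25°. The percent of reads from 12° to 25° was 0.641, 0.627, 0.589, 0.554, and 0.495 for the 150 longest and 2.18, 2.18, 2.09, 2.00, and 1.76 for the 600 longest. With each pool left out in turn, 0 to 4 contigs rose and 0 to 1 fell at 21°. Over all contigs tested, 0.167% to 0.530% rose and 0.00513% to 0.0795% fell there. At 25°, 16 to 21 rose and 12 to 18 fell. The shares there were 6.70% to 8.85% up and 3.26% to 5.15% down over all contigs tested. Medians of the list ran from -0.10 to 0.09 at 15° and from -0.11 to 0.05 at 18°. They ran from -0.16 to 0.03 at 21° and from -0.14 to 0.11 at 25°. The percent of reads then ran from 1.13 to 1.33 at 12°, from 1.15 to 1.31 at 15°, from 1.1 to 1.22 at 18°, from 0.988 to 1.17 at 21°, and from 0.898 to 1.04 at 25°. Uncalled contigs changed sign at 25° as follows. Library totals gave -0.25 for contig_465047, -0.076 for contig_50369, -0.045 for contig_61325, and -0.29 for contig_59106. Without 12° pool 1, contig_465047 gave -0.02 and contig_59106 -0.18, and without 25° pool 1 they gave -0.33 and -0.45. The sign of contig_515524 changed without 12° pool 2 or 3 or 25° pool 2, and that of contig_476085 without 12° pool 3 (0.99). With each pool left out in turn, contig_515524 ran from -0.21 to 0.092, contig_465047 from -0.33 to 0.36, and contig_59106 from -0.45 to 0.63. contig_464445 passed with library totals (-1.28) and without 25° pool 1 (-1.02). The cause of these moves was not tested, except that other thresholds and list sizes change counts by their construction. No pairing of the pools by replicate number was evident: same-numbered heated and control pools had correlations of deviations between -0.665 and 0.706 over 76456 contigs. Whether a weaker pairing lay beneath the split of pools was not tested. With the replicate number as a block, 0 contigs were called at 15° (background 0%) and at 18° (background 0.0276% up and 0.000641% down). At 21°, 4 rose and 0 fell. The rises were 1.33% of the list, against 0.711% of all contigs tested, and 0.124% of all contigs fell. At 25°, 17 rose (5.67%, against 5.89%) and 11 fell (3.67%, against 2.90%). The spread between pools limited what could be seen: the SE at 25° was 1.09 in contig_465079, so that a 2-fold change there was not detectable.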

Other observations

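The share of contigs past the threshold at 25° did not run evenly with length. In edgeR's fit, 7.33% of the tested contigs of 100 to 499 bp were upregulated and 4.26% downregulated, against 8.36% and 5.50% at 500 to 999 bp, 10.2% and 8.14% at 1000 to 1999 bp, 10.8% and 10% at 2000 to 2999 bp, 9.92% and 9.38% at 3000 to 3999 bp, 9.73% and 8.51% at 4000 to 4999 bp, 8.30% and 6.39% at 5000 to 6604 bp, and 6% and 4.33% in the 300 longest. The median number of reads per contig was 641 in the shortest class, 618 at 500 to 999 bp, and 30900 in the 300 longest.

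Within the 300 longest, 4.07% of the 123 KT3A contigs were upregulated at 25° and 2.44% downregulated, against 7.34% and 5.65% of the 177 denovo contigs. Over all contigs tested the shares were 8.30% and 5.59% for KT3A, and 9.29% and 7.05% for denovo. KT3A contigs thus had the lower shares in the whole table as well. The 155 contigs with equal length columns had 7.10% upregulated and 6.45% downregulated, and the 145 with unequal columns 4.83% and 2.07%. The 2 splits share most of their contigs and were not tested.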
